A study of Mus musculus with 15 samples.

Results

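RNA of the ventral domain of the embryonic dorsal aorta with its surrounding tissue (AoV) was compared between mouse embryos at E10.5 (E10 AoV) and E9.5 (E9 AoV), with 3 libraries per group. All embryos came from the C57BL/6 strain and no engineered allele or treatment is named in their labels, so stage is the only labelled difference. Each library was made from aorta-gonad-mesonephros (AGM) subdomains of 15 to 34 embryos, with 3 separate experiments in all, so a library is a pool and not an animal. AoV and AoD were cut from the same AGM regions, and whether libraries with one number share embryos is not given in the sources used here. The series holds 15 libraries in 5 groups, and the other groups used here for comparison are the dorsal domains of the same stages (E9 AoD and E10 AoD) and the urogenital ridges of E10.5 (E10 UGR). At E9.5 the urogenital ridges were not collected as a group of their own, so a difference in what was dissected at each stage cannot be told apart from a difference between stages. The genes described are all those with at least 0.5 RPM (reads per megaread assigned to genes) in at least 1 of the 6 AoV libraries, which were 17933 of the 28876 genes in the deposited table.

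The AGM is the part of the embryo in which the first hematopoietic stem cells (HSCs) arise, from the endothelium that lines the dorsal aorta, and mainly from its ventral wall. The ventral wall is bordered by other tissues with their own programs. They are the gut endoderm and its mesenchyme below, the coelomic epithelium and the gonad and adrenal primordia to the sides, and the sympathoadrenal precursors that gather around the vessel. Primordial germ cells cross this region on their way from the hindgut to the gonads. Blood circulates through the vessel, so a dissected AoV holds red cells as well as the wall. The comparison between stages asks which genes change in the ventral domain over the day in which the region becomes able to support HSC development on its own.

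The 6 AoV libraries held between 38.5 and 43.9 megareads (M) assigned to genes, and 3 reads corresponded to between 0.0684 and 0.0778 RPM. Endothelial markers were present in every library. The most unequal pair of libraries of one group was E9 AoV replicates 1 and 2, which differed in red cell genes. The summed level of the 27 globin and erythroid genes was 16730, 3802 and 10210 RPM in the E9 AoV libraries and 6938, 13100 and 10690 RPM in the E10 AoV libraries. Immediate early genes also differed within E9 AoV, where their summed level was 2920, 1443 and 1898 RPM, and all 3 E9 AoV libraries lay below the 7417, 5716 and 7364 RPM of E10 AoV. Each result was therefore also fitted without each library in turn.

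**Figure D1:**
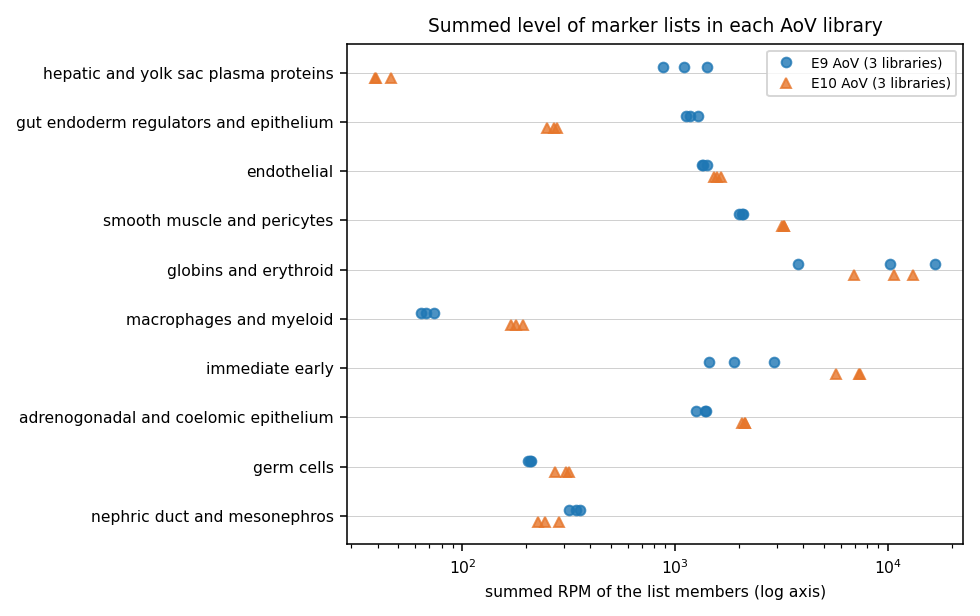
Summed RPM of the members of 10 marker lists in each of the 3 E9 AoV libraries (blue circles) and 3 E10 AoV libraries (orange triangles), on a log axis. Globin and erythroid sums run from 3802 to 16730 RPM across the E9 AoV libraries and overlap between the stages, whereas the plasma protein, macrophage and immediate early sums do not overlap.

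Between the stages, 1976 of the 17933 genes changed, 11.0% of those tested, with 1082 higher and 894 lower in E10 AoV. A gene was counted as changed, and is said to have risen or fallen, when it met both thresholds, a fold of 2 or more in either direction (1 on the log2 scale) and a p below 0.05 from limma after Benjamini-Hochberg adjustment over all tested genes. Log2 fold changes are of RPM plus 0.1, which understates the change of low genes, and where a pseudocount of 1 RPM ended the call of a gene or moved the calls of a list by over 1.5 times, that value is given beside it. The share of genes that rose was 6.03%, and the share that fell was 4.99%. Large decreases outnumbered large increases, since 79 genes fell and 15 rose by at least 4 on the log2 scale. The genes that rose took 9377 RPM at E9.5 and 28360 RPM at E10.5, while those that fell took 16108 RPM and 4692 RPM. In bulk tissue, more cells of a type and more RNA per cell cannot be told apart. RPM ranges of the 2 groups did not overlap for 55.7% of tested genes, so a lack of overlap alone says little about a gene, and p-values measure the spread between these pools.

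**Figure D2:**
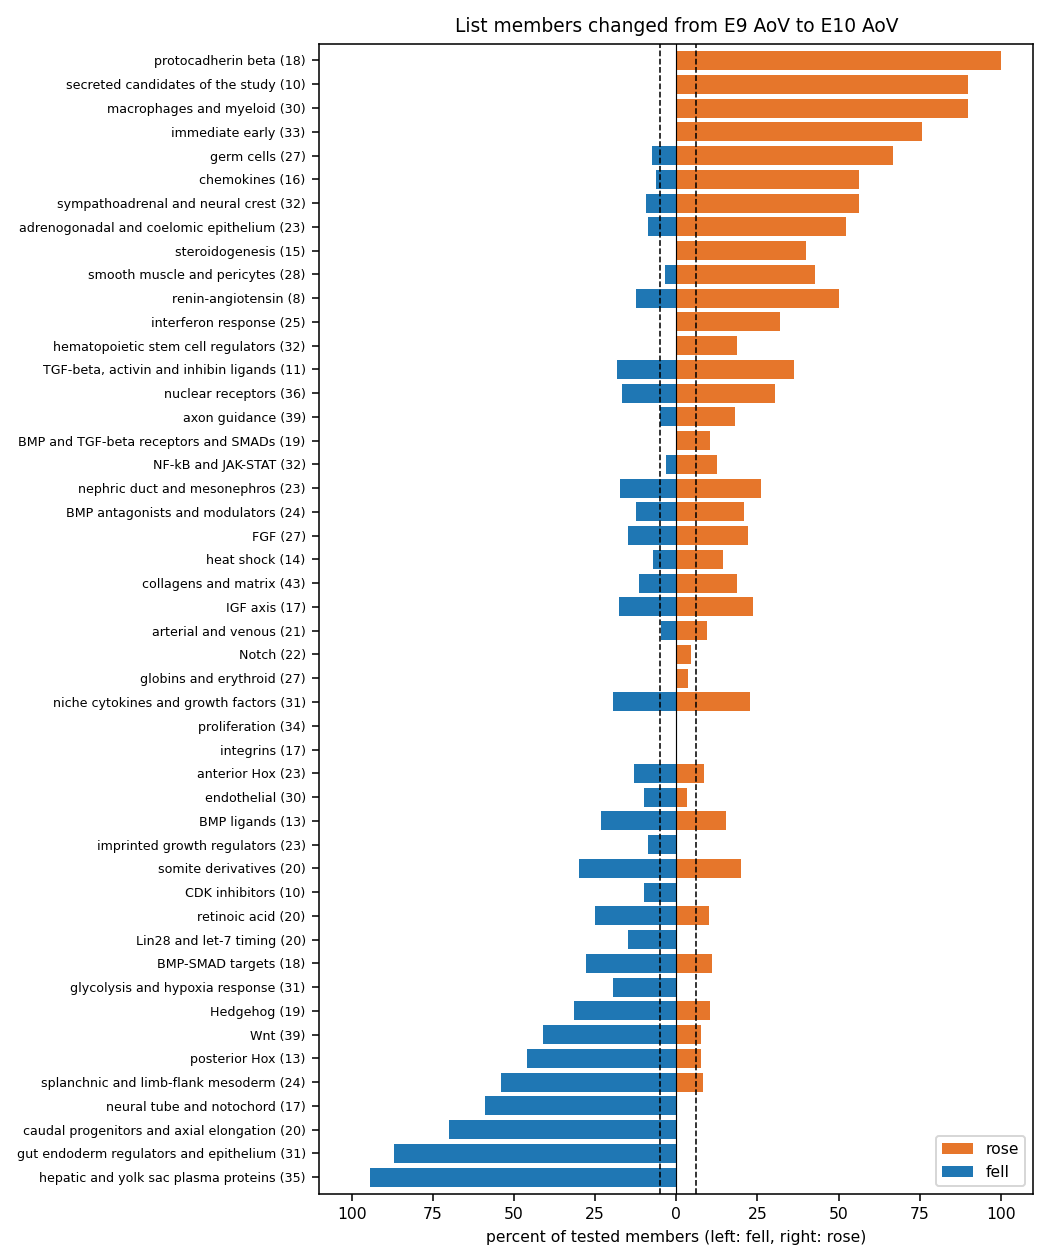
Share of the tested members of each gene list that rose (to the right, orange) or fell (to the left, blue) from E9 AoV to E10 AoV, in percent, with the number of tested members in parentheses. The dashed lines mark the shares over all 17933 tested genes, 6.03% higher and 4.99% lower. Protocadherin beta genes, the secreted factors chosen by the study and macrophage genes extend farthest to the right, and plasma protein and gut endoderm genes farthest to the left.

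The genes with the greatest increases included the regulators of the adrenal and gonad primordium. Nr5a1, the nuclear receptor (steroidogenic factor 1) that both organs need in order to form, had 0.638, 0.487 and 0.618 RPM in the E9 AoV libraries and 66.3, 69 and 62.2 RPM in those of E10 AoV (chromosome 2, 38548176 to 38570062, minus strand, NCBIM37). Its libraries of one stage lay within a narrow band, and the bands were far apart (log2 change 6.60 with SE 0.107 and adjusted p = 5.88e-09). Lhx9, a LIM homeobox gene of the gonad primordium, had 6.56, 4.54 and 5.21 RPM in the E9 AoV libraries and 111, 121 and 116 RPM in those of E10 AoV (log2 change 4.41 with SE 0.117 and adjusted p = 4.78e-08). Amhr2, the receptor for anti-Müllerian hormone, had 0.729, 0.788 and 0.404 RPM in the E9 AoV libraries and 17.2, 19.2 and 15.2 RPM in those of E10 AoV (log2 change 4.58 with SE 0.207 and adjusted p = 5.10e-07). For all 3 genes the lowest E10 AoV library was above the highest E9 AoV library by a wide margin.

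Of the 23 tested genes of the adrenogonadal primordium and coelomic epithelium, 12 rose and 2 fell, with a median log2 fold change of 1.16 beside -0.0031 over all tested genes. Wt1, a zinc finger factor of the coelomic epithelium, rose from 39.3 ± 0.416 to 226 ± 10.8 RPM (SD, n = 3). Gata4, which acts early in the thickening of that epithelium, rose from 95.6 ± 6.44 to 233 ± 16.2 RPM, while its relative Gata6 had 136 ± 7.09 and 202 ± 8.33 RPM and stayed under 2-fold (0.57). Emx2, needed for the urogenital epithelium, had 5.45, 3.62 and 4.59 RPM in the E9 AoV libraries and 47.7, 52.2 and 41.9 RPM in those of E10 AoV. It rose by 3.36 on the log2 scale with no overlap between the stages. Tcf21 and Zfpm2, a bHLH factor and the GATA cofactor FOG2, rose by 1.63 and 1.41 on the log2 scale. Aldh1a2 and Aldh1a1, enzymes that make retinoic acid, rose by 1.26 and 2.95. Not every regulator on the list moved this way. Lhx2, a close relative of Lhx9, fell from 17.6, 15.4 and 12.2 RPM to 1.37, 1.59 and 0.838 RPM (log2 change -3.50 with SE 0.219 and adjusted p = 3.09e-06), and Osr1, an early marker of intermediate mesoderm, had 18.6 ± 0.929 and 19.5 ± 0.404 RPM with overlapping ranges.

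In E10 AoD, Nr5a1 had 4.04 ± 0.695 RPM, Lhx9 4.29 ± 0.865 RPM and Wt1 45.2 ± 8.10 RPM, and in E10 UGR the same genes had 76.9 ± 5.85, 54.8 ± 6.05 and 370 ± 17.7 RPM. The E10 AoV means of Nr5a1 and Wt1 thus lay between those of AoD and the ridge, and that of Lhx9 lay above both. Of the tested members of the list, 14 had a stage change more positive in AoV than in AoD by the test of that difference, and none a more negative one. Of all 18402 genes in that test, 3.96% were more positive and 6.85% more negative. Markers of the nephric duct and mesonephros, the other main tissue of the ridge, moved both ways. Of 23 tested members, 6 rose and 4 fell, 7 had a change more positive and 3 more negative than in AoD, and their summed level was between 317 and 356 RPM at E9.5 and between 228 and 285 RPM at E10.5. Calb1, Cdh16 and Cdh6, a calcium-binding protein and cadherins of tubules, rose from 1.05 ± 0.197, 0.403 ± 0.00808 and 9.14 ± 1.51 to 11.7 ± 1.94, 3.03 ± 0.315 and 23.5 ± 2.47 RPM, beside 98.8 ± 2.93, 41.3 ± 2.22 and 33.2 ± 2.86 RPM in E10 UGR. Pax2, a defining duct and tubule factor, had 2.71, 2.06 and 2.42 RPM in the E9 AoV libraries and 6.43, 5.32 and 3.91 RPM in those of E10 AoV beside 31.4 ± 3.80 RPM in E10 UGR. It rose by 1.07 on the log2 scale, a call that was lost without E9 AoV replicate 2 (0.97) or E10 AoV replicate 1 (0.91) and with 1 RPM added (0.86). Lhx1, which is required for the duct, had 4.79 ± 1.06 and 4.80 ± 0.731 RPM in AoV and 43.7 ± 4.56 RPM in E10 UGR. Whether urogenital tissue in the dissected AoV has a part in the adrenogonadal result was not tested.

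Genes of steroid synthesis were a small part of this change. Steroid hormones are made from cholesterol, which StAR carries into mitochondria and CYP11A1 cleaves, before the HSD3B enzymes act. Of 15 tested members, 6 rose and none fell, Nr5a1 and Nr0b1 included. Star had 3.92, 3.69 and 3.26 RPM in the E9 AoV libraries and 5.24, 5.19 and 4.75 RPM in those of E10 AoV, an increase that stayed under 2-fold (0.47, adjusted p = 0.00564). Cyp11a1 had 0.251, 0.0696 and 0.261 RPM in the E9 AoV libraries and 0.986, 0.895 and 0.908 RPM in those of E10 AoV, low in every library but without overlap (log2 change 1.89 with SE 0.297 and adjusted p = 8.85e-04, and 0.70 with 1 RPM added). Mc2r, the receptor for adrenocorticotropic hormone, had 1.12, 1.3 and 0.975 RPM in the E9 AoV libraries and 12.5, 11 and 13.5 RPM in those of E10 AoV. It rose by 3.34 on the log2 scale, and Nr0b1 (DAX1), a repressor partner of NR5A1, rose by 2.17. Hsd3b1 rose from 0.657 ± 0.0382 to 3.48 ± 0.5001 RPM. Promoter entries were matched by deposited symbol, and chromosome 18 was left out of every promoter count here and below. The 250 bases before the RefSeq start of the 4 risen members with such an entry were searched for the NR5A1 site CAAGGTCA on both strands. These letters were in none of them and in 1.51% of all genes with an entry, and nothing about the factor follows from their absence in this window.

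A receptor and enzymes of the renin-angiotensin system rose as well. Angiotensin II is made by the converting enzyme ACE, acts through the receptors AGTR1 and AGTR2, and is degraded by peptidases such as MME. Agtr2 had 0.342, 0.162 and 0.143 RPM in the E9 AoV libraries and 18.3, 13.2 and 11.2 RPM in those of E10 AoV (log2 change 5.53 with SE 0.255 and adjusted p = 5.78e-07). Every E10 AoV library was far above every E9 AoV library, and in AoD Agtr2 went from 0.268 ± 0.0471 to 83.5 ± 15.3 RPM, a larger increase by the test of the difference (AoV minus AoD -2.29 with SE 0.338 and adjusted p = 3.12e-04). Ace rose from 2.16 ± 0.215 to 4.65 ± 0.298 RPM, and Mme rose from 12.9 ± 2.49 to 74.4 ± 2.06 RPM. Agtr1a had 2.45 ± 0.140 and 1.82 ± 0.440 RPM and did not pass (-0.44). Agt, which encodes the precursor angiotensinogen, was below 0.5 RPM in every AoV library and so was not tested. Its AoV means were 0.146 RPM at E9.5 and 0.0414 RPM at E10.5, and no E10 AoV library held more than 3 reads of it. In all, 4 of 8 tested members rose and 1, the receptor gene Mas1, fell (3 and 0 with a pseudocount of 1 RPM, with Ace at 0.84 and Mas1 at -0.50).

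**Figure D3:**
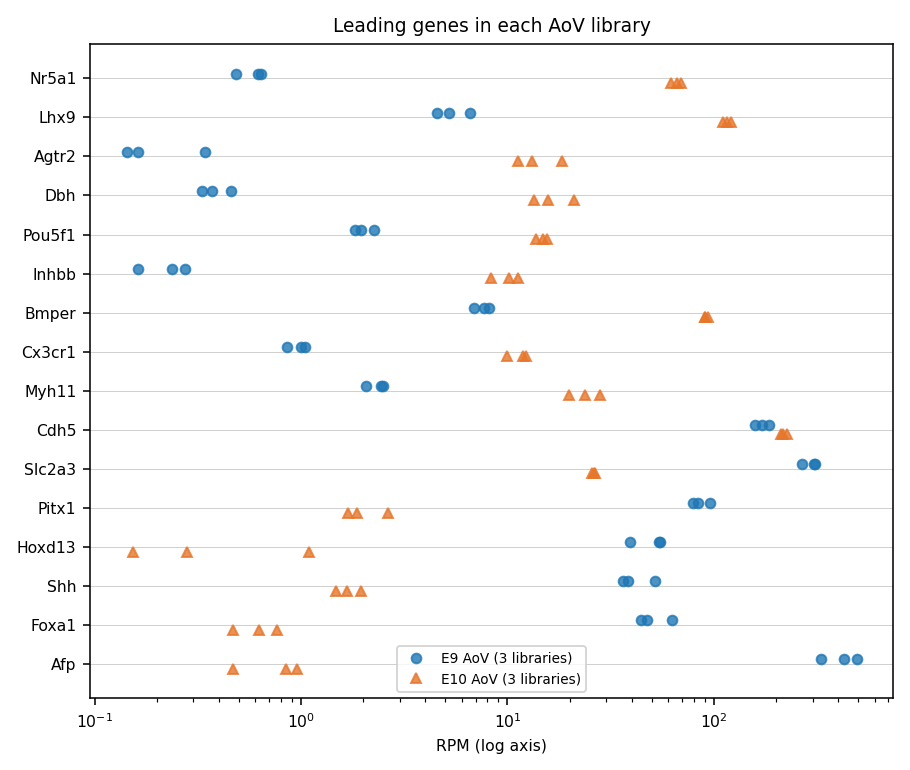
RPM of 16 genes named in the text in each of the 3 E9 AoV libraries (blue circles) and 3 E10 AoV libraries (orange triangles), on a log axis. Of the genes shown, those from Nr5a1 to Myh11 lie to the right at E10.5, Slc2a3, Pitx1, Hoxd13, Shh, Foxa1 and Afp lie to the left, and the libraries of Cdh5 lie close together at both stages.

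Genes of the sympathoadrenal lineage, the neural crest derivatives that form sympathetic ganglia and the adrenal medulla, rose in part. Of 32 tested members, 18 rose and 3 fell. Dbh, the enzyme that turns dopamine into noradrenaline, had 0.456, 0.371 and 0.333 RPM in the E9 AoV libraries and 20.9, 15.7 and 13.5 RPM in those of E10 AoV (log2 change 5.09 with SE 0.174 and adjusted p = 1.21e-07). Its E9 AoV libraries were all below 0.5 RPM, though above the level of 3 reads, and every E10 AoV library was far higher. Phox2a, a homeobox gene of autonomic neurons, had 0.392, 0.283 and 0.409 RPM in the E9 AoV libraries and 4.83, 3.43 and 3.26 RPM in those of E10 AoV. It rose by 3.08 on the log2 scale, although 26.1% of its exonic bases overlap Inppl1, whose reads this unstranded protocol cannot separate. Th, the rate-limiting enzyme of catecholamine synthesis, rose from 0.579 ± 0.157 to 3.23 ± 0.172 RPM. Chgb, a granin of secretory granules, and the neuronal tubulin Tubb3 rose by 2.25 and 1.92.

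Crest markers that precede this lineage did not pass. Sox10 and Foxd3, which mark migrating crest, had 6.05 ± 1.18 and 8.47 ± 1.53 RPM and 1.67 ± 0.452 and 2.08 ± 0.572 RPM, with overlapping ranges. Hand2 and Gata3, which are shared with other tissues of the trunk, had log2 fold changes of 0.09 and 0.08. At E10.5 the AoD level was higher, since Dbh was at 98.8 ± 17.7 RPM in E10 AoD. The stage change of Dbh was larger in AoD (AoV minus AoD -1.98 with SE 0.301 and adjusted p = 4.01e-04). Nefm, a neurofilament subunit and 1 of the 12 genes with the largest rise, had 13.1, 9.51 and 10.8 RPM in the E9 AoV libraries and 236, 223 and 167 RPM in those of E10 AoV. Its 3 E10 AoV libraries spread from 167 to 236 RPM and none came near the E9 AoV range.

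Germ cell genes rose in the ventral tissue. Primordial germ cells keep a pluripotency network of factors such as OCT4 (Pou5f1), NANOG and PRDM14 and express the Dppa genes. Of 27 tested members, 18 rose and 2 fell (10 and 2 with a pseudocount of 1 RPM), with a median log2 fold change of 2.13. Pou5f1 had 1.82, 2.25 and 1.95 RPM in the E9 AoV libraries and 13.8, 14.8 and 15.6 RPM in those of E10 AoV (log2 change 2.82 with SE 0.104 and adjusted p = 1.74e-07). Nanog had 0.342, 0.557 and 0.666 RPM in the E9 AoV libraries and 3.61, 3.84 and 3.91 RPM in those of E10 AoV, and Dppa3 (Stella) had 0.403, 1.11 and 0.654 RPM in the E9 AoV libraries and 4.05, 4.76 and 5.15 RPM in those of E10 AoV. For these genes each E10 AoV library was above each E9 AoV library. Esrrb, an orphan nuclear receptor of the network, had 1.48, 1.23 and 1.47 RPM in the E9 AoV libraries and 7.71, 8.54 and 8.99 RPM in those of E10 AoV (2.51 on the log2 scale), and Dppa4 and Utf1 rose by 3.28 and 2.96. Rhox9, a homeobox gene of the germ line and gonad, rose from 0.366 ± 0.0620 to 4.33 ± 0.514 RPM.

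In AoD 12 of the same genes reached 0.5 RPM in any library, and of these 1 rose and 4 fell. Of all 17622 genes tested in AoD, 1544 rose and 697 fell. In E9 AoD and E10 AoD, Pou5f1 was at 0.618 ± 0.333 and 0.284 ± 0.190 RPM, and the AoV minus AoD difference of the stage changes was 3.73 with SE 0.580 and adjusted p = 4.56e-04. The members that fell were Sall4 (-2.23) and Prdm1 (-1.70), which other embryonic tissues also express. Ddx4, a helicase of later germ cells, had 0.997 ± 0.175 and 1.60 ± 0.361 RPM and did not pass, and Alpl, whose phosphatase activity is the classical stain for these cells, had overlapping ranges. Part of the reads of some members are shared with copies, since 54.6% of the 50-base stretches of Dppa5a, 11.0% of those of Dppa4 and 9.74% of those of Rhox9 also lie in transcripts of other genes.

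The greatest decreases were those of plasma proteins that the liver bud and the visceral yolk sac secrete. Hepatocytes and yolk sac endoderm make albumin, alpha-fetoprotein, apolipoproteins, fibrinogen and protease inhibitors under the control of factors such as HNF1 and HNF4. Afp had 427, 491 and 328 RPM in the E9 AoV libraries and 0.467, 0.844 and 0.955 RPM in those of E10 AoV (log2 change -8.95 with SE 0.226 and adjusted p = 4.52e-08), a ratio of means of 550 (chromosome 5, 90919740 to 90937933, plus strand, NCBIM37). Its 3 E9 AoV libraries were all above 100 RPM, and no E10 AoV library reached 1 RPM. Fgb, the fibrinogen beta chain, had 29.3, 37.5 and 22.3 RPM in the E9 AoV libraries and 0.0778, 0.0767 and 0.14 RPM in those of E10 AoV (log2 change -7.22 with SE 0.204 and adjusted p = 6.43e-08; chromosome 3, 82846169 to 82853725, minus strand). Fga, the alpha chain, had 5.72, 8.56 and 5.16 RPM in the E9 AoV libraries and 0, 0 and 0 RPM in those of E10 AoV, so that all 3 E10 AoV libraries were listed at 0 and the level was at least 86.6-fold lower when set against 3 reads per library. Ttr, the carrier of thyroxine and retinol, had 25.9, 35.7 and 24.6 RPM in the E9 AoV libraries and 0.0259, 0.0512 and 0.373 RPM in those of E10 AoV, with E10 AoV replicate 3 above the other two. Apob and Apoa1, apolipoproteins of lipid export, fell by 6.37 and 6.75 on the log2 scale, and Alb fell by 6.002. Among the 12 genes with the largest decrease were also Itih2, Ambp and Serpinf2, an inter-alpha-trypsin inhibitor chain, the precursor of bikunin and the antiplasmin gene, which fell by 7.88, 6.88 and 6.61.

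All 35 tested members of this list had negative values and 33 fell, with a median log2 fold change of -5.14. The summed level of the list was between 882 and 1408 RPM at E9.5 and between 38.9 and 46.3 RPM at E10.5. The exceptions were the coagulation factors F5 and F10, with log2 fold changes of -0.58 and -0.71. The absorptive receptor Cubn, used by yolk sac endoderm, fell from 33.97 ± 17.96 to 3.04 ± 0.390 RPM, with a wide spread in E9 AoV. Serpina1a and Serpina1b share 42.8% and 45.0% of their 50-base stretches with other genes, and their separate values are uncertain. Trf fell by 2.57, and most of its exonic bases overlap a second gene model. Where E9 AoV holds tissue that makes these proteins, its part in the other results was not tested.

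The promoters of 3 of these genes are shown because they hold the core site GTTAAT of HNF1 (reverse complement ATTAAC), a regulator of plasma protein genes. They are the 250 bases before the RefSeq start on GRCm38.p6, 5′ to 3′ on the gene's strand, and capitals mark the core site. Afp is on the plus strand at chr5:90490464-90490713, Fgb on the minus strand at chr3:83049864-83050113 and Fga on the plus strand at chr3:83025903-83026152.
Afp: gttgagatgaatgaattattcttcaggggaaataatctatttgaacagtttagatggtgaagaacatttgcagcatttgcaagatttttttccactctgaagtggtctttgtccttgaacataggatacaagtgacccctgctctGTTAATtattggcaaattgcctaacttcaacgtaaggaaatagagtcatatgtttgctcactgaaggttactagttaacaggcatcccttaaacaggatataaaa
Fgb: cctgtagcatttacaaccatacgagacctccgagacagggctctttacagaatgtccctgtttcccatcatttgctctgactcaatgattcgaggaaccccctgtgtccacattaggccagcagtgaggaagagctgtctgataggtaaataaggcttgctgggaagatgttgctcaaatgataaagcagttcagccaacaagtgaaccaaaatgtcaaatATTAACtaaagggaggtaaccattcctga
Fga: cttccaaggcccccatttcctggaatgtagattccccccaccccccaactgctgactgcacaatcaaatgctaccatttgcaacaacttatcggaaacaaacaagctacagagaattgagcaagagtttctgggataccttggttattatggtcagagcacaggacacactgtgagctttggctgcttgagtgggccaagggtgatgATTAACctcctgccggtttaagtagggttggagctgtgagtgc
The core site stands 105 bases before the start of Afp, 29 before that of Fgb and 43 before that of Fga, where positions count to the first base of the match as printed. In all, 29 of the 33 genes of the list that fell had a promoter entry, and 11 of them (37.9%) held these letters on either strand, beside 7.49% of all 27025 genes with an entry. The match is a description of letters and not of bound sites.

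Gut endoderm regulators and epithelial genes fell too. FOXA factors open the chromatin of endoderm genes, and sonic and Indian hedgehog are the signals that this epithelium sends to the mesenchyme around it. Foxa1 had 44.3, 62.9 and 47.4 RPM in the E9 AoV libraries and 0.467, 0.767 and 0.629 RPM in those of E10 AoV (log2 change -6.17 with SE 0.177 and adjusted p = 6.60e-08). Foxa2 had 11.4, 11.6 and 9.39 RPM in the E9 AoV libraries and 0.156, 0.153 and 0.186 RPM in those of E10 AoV, and Hnf4a, a nuclear receptor of liver and gut, had 17, 23 and 14.9 RPM in the E9 AoV libraries and 0.415, 0.512 and 0.466 RPM in those of E10 AoV. No E10 AoV library reached 1 RPM for any of these 3 genes. Cdx2, the hindgut and tail homeobox gene, had 26.5, 27.4 and 26.1 RPM in the E9 AoV libraries and 0.752, 1.15 and 0.582 RPM in those of E10 AoV (log2 change -4.90 with SE 0.192 and adjusted p = 2.39e-07). Of 31 tested members, 27 fell and none rose. General epithelial genes fell less far, Epcam from 55.7 ± 4.07 to 11.0 ± 0.723 RPM, Cdh1 (E-cadherin) from 78.8 ± 11.5 to 11.0 ± 0.751 RPM, and Krt8 from 317 ± 7.37 to 64.2 ± 6.84 RPM. Sox17, which endoderm shares with arterial endothelium, had 11.97 ± 1.40 and 12.6 ± 0.557 RPM with overlapping ranges, and Sox2, Prox1 and Hhex also did not pass. Nepn, which encodes the proteoglycan nephrocan, was among the 12 genes with the largest decrease, with 108, 133 and 100 RPM in the E9 AoV libraries and 0.389, 1.18 and 3.12 RPM in those of E10 AoV.

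Hedgehog ligands and several of their targets fell in the ventral tissue. In Hedgehog signaling the ligand binds Patched, which frees Smoothened, and the GLI factors then induce Ptch1, Gli1, Hhip and the Foxf genes of gut mesenchyme. Shh had 36.1, 51.8 and 38.3 RPM in the E9 AoV libraries and 1.67, 1.47 and 1.95 RPM in those of E10 AoV (log2 change -4.54 with SE 0.149 and adjusted p = 1.01e-07), and 24.2% of its exonic bases overlap other annotated transcripts. Ihh had 7.43, 9.51 and 7.23 RPM in the E9 AoV libraries and 0.208, 0.358 and 0.279 RPM in those of E10 AoV. Both ligands were lower in all E10 AoV libraries, whereas Dhh, the ligand of endothelium and Schwann cells, rose from 1.82 ± 0.150 to 3.99 ± 0.174 RPM (log2 change 0.82 with 1 RPM added, which is no call). Ptch1 had 281, 373 and 316 RPM in the E9 AoV libraries and 94.8, 85.9 and 83.3 RPM in those of E10 AoV and fell by 1.87 on the log2 scale. Hhip, a decoy receptor, fell by 2.93, and Gli1, the usual readout of the pathway, had 97.1, 95.8 and 84.7 RPM in the E9 AoV libraries and 46.4, 43.9 and 53.2 RPM in those of E10 AoV and missed 2-fold (log2 change -0.95 with SE 0.0812 and adjusted p = 2.09e-05), which it passed without E9 AoV replicate 3 (-1.015) or E10 AoV replicate 3 (-1.03). Smo had 242 ± 9.16 and 247 ± 7.0 RPM with overlapping ranges. In all, 6 of 19 tested members fell and 2, Dhh and Gas1, rose, the latter not without E9 AoV replicate 2 (0.96).

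In AoD 6 of 18 tested Hedgehog genes rose and 1 fell, beside 1544 and 697 of all 17622 genes tested there. Shh was at 38.6 ± 4.79 RPM in E9 AoD and 117 ± 6.08 RPM in E10 AoD, and the AoV minus AoD difference of the stage changes was -6.15 with SE 0.191 and adjusted p = 2.74e-09. Foxf2, a forkhead gene of the mesenchyme beside Hedgehog sources, had 43.4, 57.2 and 52.9 RPM in the E9 AoV libraries and 4.23, 3.93 and 3.98 RPM in those of E10 AoV, while AoD had 7.68 ± 1.41 and 88.7 ± 12.8 RPM. The AoV minus AoD difference for Foxf2 was -7.14 with SE 0.199 and adjusted p = 1.45e-09. Foxf1a, its relative, fell by 2.57 on the log2 scale in AoV and was at 4.51 ± 1.46 and 21.7 ± 6.56 RPM in AoD.

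Mesoderm genes of the body wall, hindlimb field and gut wall fell. Pitx1, which sets hindlimb identity, had 95.8, 79.4 and 83.3 RPM in the E9 AoV libraries and 1.87, 1.69 and 2.65 RPM in those of E10 AoV (log2 change -5.33 with SE 0.150 and adjusted p = 6.43e-08). Tbx4, a T-box gene of the same field, had 76.9, 83.2 and 75.3 RPM in the E9 AoV libraries and 2.18, 2.43 and 2.42 RPM in those of E10 AoV (log2 change -5.01 with SE 0.0741 and adjusted p = 5.49e-09). Both dropped to a few RPM in every E10 AoV library. Tbx5, the forelimb and heart counterpart of Tbx4, fell from 12.7 ± 1.05 to 0.763 ± 0.440 RPM, and Barx1, of stomach mesenchyme, and Alx4 fell by 2.99 and 2.82 on the log2 scale. Hand1 fell from 137 ± 4.16 to 36.4 ± 3.26 RPM, whereas Hand2 had 83.9 ± 5.53 and 89.1 ± 0.153 RPM. Of 24 tested members, 13 fell and 2 rose. The latter were Nr2f1, which rose from 104 ± 6.06 to 345 ± 11.9 RPM, and Foxd1, whose call was lost without E9 AoV replicate 2 (0.92).

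Caudal genes fell as well, among them the most 5′ Hox genes, which pattern the tail end and limbs. Hoxd13 had 39, 53.9 and 54.5 RPM in the E9 AoV libraries and 1.09, 0.153 and 0.279 RPM in those of E10 AoV (log2 change -6.65 with SE 0.471 and adjusted p = 6.60e-06). Hoxd12 and Hoxa13 had 9.12, 12.7 and 11.4 RPM and 3.49, 6.59 and 5.82 RPM in E9 AoV and 0.675, 0.281 and 0.326 RPM and 0.182, 0.0767 and 0.0931 RPM in E10 AoV. Of 13 tested posterior Hox genes, 6 fell and 1, Hoxd9, rose. Among the posterior genes of the HoxD cluster the values became more negative toward the 5′ end. Hoxd9, Hoxd10, Hoxd11, Hoxd12 and Hoxd13 had log2 fold changes of 1.35, -0.55, -2.33, -4.47 and -6.65. In AoD the same genes had -1.0, -2.93, -5.40, -4.42 and -5.005. The order in AoV is of these posterior genes only, since Hoxd1, an anterior gene of the cluster, fell. Of 23 tested anterior Hox genes, 2 rose (Hoxa7, 20.4% of whose exonic bases overlap another gene, and Hoxc6) and 3 fell, Hoxb1 and Hoxd1 among them.

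Genes of the axial progenitors that lengthen the trunk fell in 14 of 20 tested cases and rose in none (6 fell with a pseudocount of 1 RPM). Cdx4 had 5.06, 2.78 and 4.59 RPM in the E9 AoV libraries and 0.0519, 0.0512 and 0.0233 RPM in those of E10 AoV, and Evx1 had 9.16, 9 and 9.32 RPM in the E9 AoV libraries and 0.471, 0.205 and 0.349 RPM in those of E10 AoV. They fell by 4.86 and 4.44 on the log2 scale, and since no E10 AoV library held more than 3 reads of Cdx4, its value depends on the 0.1 RPM added. Fgf8, a signal of the tail bud, had 1.196 ± 0.508 and 0.536 ± 0.122 RPM and did not pass, although it did without E9 AoV replicate 2 (-1.26) or E10 AoV replicate 1 (-1.07). Wnt3a had 0.638, 0.0232 and 0.119 RPM in the E9 AoV libraries and 0.0259, 0 and 0 RPM in those of E10 AoV with overlapping ranges, and it fell only without E9 AoV replicate 2 (-1.90). Neural tube and notochord genes were low in AoV, and 10 of 17 fell (6 with a pseudocount of 1 RPM). Of these, Nkx6-1 had 4.72, 3.85 and 3.87 RPM in the E9 AoV libraries and 0.441, 0.281 and 0.489 RPM in those of E10 AoV and Zic2 had 3.44, 1.83 and 3.09 RPM in the E9 AoV libraries and 0.13, 0.358 and 0.303 RPM in those of E10 AoV. In E9 AoD the 2 genes were at 31.6 ± 4.76 and 39.8 ± 16.0 RPM. The part of neural or tail tissue in the other results was not tested. Somite derivatives were mixed, with 4 of 20 higher and 6 lower (3 and 3 with a pseudocount of 1 RPM), and Pax1, the defining sclerotome gene, had 4.57 ± 1.49 and 4.76 ± 0.443 RPM beside 299 ± 62.0 RPM in E10 AoD.

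**Figure D4:**
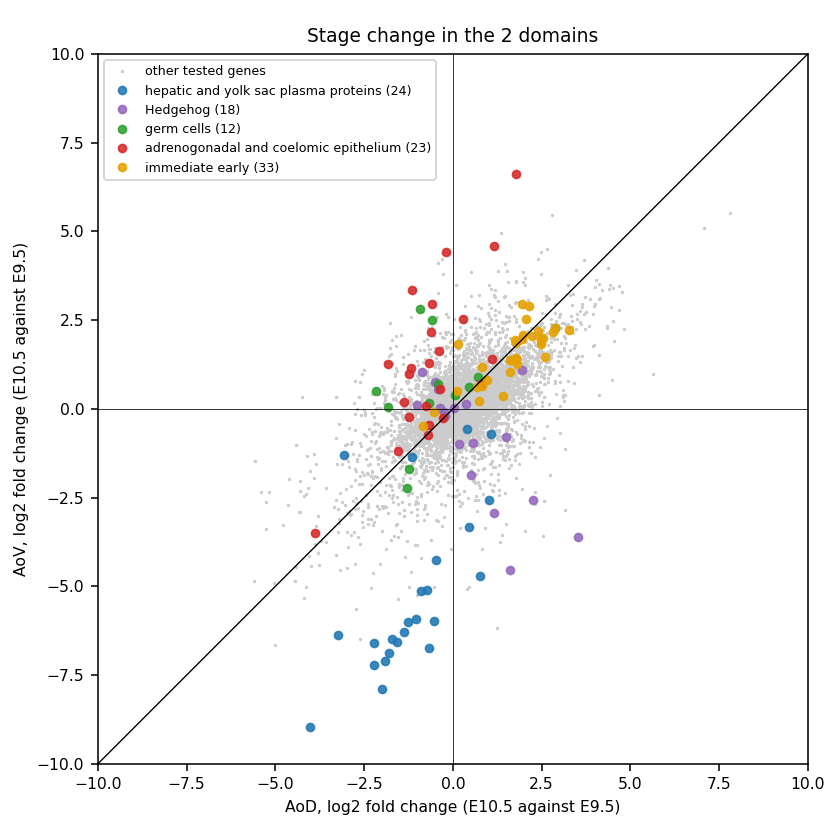
Stage change (log2 fold change, E10.5 against E9.5) of each gene tested in both domains, in AoD on the horizontal axis and in AoV on the vertical axis, with members of 5 lists in color and all other genes in gray. The diagonal line marks equal change. Most plasma protein genes and several Hedgehog genes lie far below the line, Nr5a1 and Lhx9 far above it, and most immediate early genes near it, and germ cell genes below the level filter in AoD are not drawn.

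Wnt pathway genes fell in 16 of 39 tested cases and rose in 3. Wnt ligands act through Frizzled and LRP receptors, R-spondins strengthen the signal, secreted Frizzled-related proteins and Dkk proteins block it, and Axin2 is a common target. Among the ligands, Wnt2 had 55.5, 46.9 and 50 RPM in the E9 AoV libraries and 3.09, 2.84 and 2.35 RPM in those of E10 AoV (log2 change -4.16 with SE 0.109 and adjusted p = 4.78e-08). Wnt5a, a noncanonical ligand, fell from 85.1 ± 8.18 to 27.4 ± 3.65 RPM, and Wnt4 rose from 12.2 ± 1.30 to 25.5 ± 4.02 RPM. The call of Wnt4 was lost without E9 AoV replicate 2, E10 AoV replicate 1 or E10 AoV replicate 2 (0.96, 0.98 and 0.99). Ligands thus moved both ways. Sfrp5, an antagonist of foregut mesoderm, had 16.8, 16.5 and 14.9 RPM in the E9 AoV libraries and 0.389, 0.537 and 0.303 RPM in those of E10 AoV, and Rspo2 fell by 3.36 on the log2 scale. The receptor gene Ror1 had 30.5, 34.2 and 31.6 RPM in the E9 AoV libraries and 102, 106 and 101 RPM in those of E10 AoV and rose by 1.68. Axin2 had 32.3, 33.6 and 36.8 RPM in the E9 AoV libraries and 14.8, 14.3 and 13.6 RPM in those of E10 AoV (log2 change -1.26 with SE 0.0684 and adjusted p = 1.42e-06), and Lef1 had a log2 fold change of -0.83.

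The defining endothelial genes did not pass the thresholds. Cdh5 (VE-cadherin) had 158, 185 and 171 RPM in the E9 AoV libraries and 217, 225 and 210 RPM in those of E10 AoV (log2 change 0.35 with SE 0.0614 and adjusted p = 0.00177). Pecam1 (CD31) had 67.4, 74.3 and 68.1 RPM in the E9 AoV libraries and 98.3, 102 and 98.7 RPM in those of E10 AoV (log2 change 0.51 with SE 0.0516 and adjusted p = 5.92e-05), and Kdr, the main VEGF receptor, had 163 ± 12.1 and 133 ± 10.6 RPM (-0.29). Cdh5 and Pecam1 were higher in all E10 AoV libraries by less than 2-fold. Of 30 tested endothelial genes, 1 rose and 3 fell, 13.3% beside 11.0% of all tested genes. Vwf, the clotting factor stored by endothelium, had 67.4, 85.4 and 70.2 RPM in the E9 AoV libraries and 178, 204 and 188 RPM in those of E10 AoV (log2 change 1.36 with SE 0.0897 and adjusted p = 4.32e-06). Etv2, the factor that starts the endothelial and blood lineages, had 1.62, 1.14 and 1.24 RPM in the E9 AoV libraries and 0.285, 0.23 and 0.326 RPM in those of E10 AoV and fell by 1.91 on the log2 scale (-0.86 with 1 RPM added, which is no call). The other genes that fell were Lyve1 and Stab2, scavenger receptors of venous and lymphatic endothelium.

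Most arterial genes stayed under 2-fold. Gja5 (connexin 40) had 50.7, 64.7 and 52.8 RPM in the E9 AoV libraries and 103, 113 and 116 RPM in those of E10 AoV (log2 change 0.99 with SE 0.0908 and adjusted p = 3.42e-05), just below the fold threshold, which it passed without E9 AoV replicate 2 (1.09) or E10 AoV replicate 1 (1.04). Efnb2, Dll4, Hey1 and Jag1, members of the ephrin and Notch programs of arteries, had log2 fold changes of 0.65, 0.49, 0.75 and 0.57, each without overlap between the stages. Bmx, a kinase of arterial endothelium, rose from 1.28 ± 0.0651 to 4.24 ± 0.305 RPM. Nr2f2 (COUP-TFII), which gives veins their identity and is also expressed in mesenchyme, rose from 191 ± 3.21 to 393 ± 17.7 RPM, and Nrp2, a receptor of veins and of other tissues, fell from 335 ± 47.8 to 109.5 ± 10.4 RPM. Ephb4, the venous partner of ephrin B2, had 155 ± 4.58 and 155 ± 10.4 RPM with overlapping ranges. Over the 21 tested genes, 2 rose and 1 fell, 14.3% beside 11.0% of all tested genes. Between those 3 calls and 6 calls were made when 1 library was left out, the most without E10 AoV replicate 1 and 5 without E9 AoV replicate 2. Of 22 tested Notch pathway genes 1 rose, Heyl (2.51), and none fell, 4.55% beside 11.0% of all tested genes. Leaving out 1 library gave up to 3 calls, the most without E9 AoV replicate 2 and 2 without E9 AoV replicate 1, E10 AoV replicate 2 or E10 AoV replicate 3.

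Smooth muscle and pericyte genes rose in 12 of 28 tested cases. In the wall of a maturing artery, mesenchymal cells around the endothelium take on contractile proteins. Myh11, the smooth muscle myosin heavy chain and the most specific of these markers, had 2.5, 2.45 and 2.06 RPM in the E9 AoV libraries and 23.8, 28 and 19.9 RPM in those of E10 AoV (log2 change 3.29 with SE 0.133 and adjusted p = 2.84e-07). Cnn1 (calponin) had 10.4 ± 0.676 RPM (SD, n = 3) at E9.5 and 28.8, 28.3 and 31.9 RPM at E10.5, and Rgs5, a pericyte gene, had 37.9, 47.5 and 41.8 RPM in the E9 AoV libraries and 257, 271 and 256 RPM in those of E10 AoV. Both were higher in every E10 AoV library. Cspg4 (NG2) and Mcam (CD146), surface proteins of pericytes, rose by 2.45 and 1.25 on the log2 scale. Acta2, which appears early in the contractile program, had 268 ± 10.8 and 337 ± 22.3 RPM (0.33), and Tagln had 152, 158 and 156 RPM in the E9 AoV libraries and 298, 292 and 335 RPM in those of E10 AoV (log2 change 0.99 with SE 0.0572 and adjusted p = 1.97e-06), just under 2-fold, which it reached without E10 AoV replicate 1 (1.009) or E10 AoV replicate 2 (1.02). The stage change of Acta2 was smaller than in AoD (AoV minus AoD -2.77 with SE 0.264 and adjusted p = 1.10e-05). In all, 11 members had a change more negative than in AoD, Vtn included, and 2 a more positive one, beside 6.85% and 3.96% of all genes in that test. The member that fell was Vtn, vitronectin, which is also a plasma protein of the liver.

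Regulators of blood stem cells rose in 6 of 32 tested cases and fell in none, 18.8% beside 11.0% of all tested genes. RUNX1 drives the transition of endothelium into blood, and GFI1, MYB and GATA2 act with or after it. Runx1 had 8.09, 9.25 and 8.29 RPM in the E9 AoV libraries and 22.1, 22.9 and 25.7 RPM in those of E10 AoV (log2 change 1.45 with SE 0.0836 and adjusted p = 1.90e-06; chromosome 16, 92601712 to 92826311, minus strand, NCBIM37). In AoD Runx1 went from 3.42 ± 0.789 to 15.7 ± 1.63 RPM, and the AoV minus AoD difference of the stage changes was -0.74 with SE 0.194 and adjusted p = 0.0141, below the size of 1 required for a call. Gata2 had 11.4, 12.1 and 10.8 RPM in the E9 AoV libraries and 21.8, 20.3 and 20.7 RPM in those of E10 AoV (log2 change 0.87 with SE 0.0687 and adjusted p = 1.34e-05), below the fold threshold. Myb had 6.11 ± 0.384 and 9.14 ± 0.752 RPM (0.57), and Gfi1, Itga2b (CD41), Kit and Tal1 had overlapping ranges. Hlf and Mecom, factors of HSCs, had log2 fold changes of -0.35 and 0.30.

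The genes on this list that rose most are expressed across mature white cells. Ptprc (CD45) had 0.661, 0.58 and 0.832 RPM in the E9 AoV libraries and 3.76, 4.66 and 4.38 RPM in those of E10 AoV (log2 change 2.47 with SE 0.157 and adjusted p = 3.45e-06). Sfpi1 (PU.1), a myeloid and lymphoid factor, had 2.46, 1.99 and 1.85 RPM in the E9 AoV libraries and 4.88, 6.04 and 7.4 RPM in those of E10 AoV, and Vav1 had 0.707, 0.626 and 0.713 RPM in the E9 AoV libraries and 1.92, 2.23 and 2.68 RPM in those of E10 AoV. Spn (CD43) rose by 1.34 on the log2 scale and Bcl11a by 1.43, and with 1 RPM added Spn and Vav1 were not called (0.93 and 0.96). The rise of these genes went together with that of macrophage markers, whose part in the blood regulator result was not tested.

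Of 30 tested macrophage and myeloid genes 27 rose and none fell, with a median log2 fold change of 2.24. Their summed level was between 63.8 and 73.2 RPM at E9.5 and between 170 and 194 RPM at E10.5. Cx3cr1, a chemokine receptor of early macrophages, had 1.05, 0.858 and 0.998 RPM in the E9 AoV libraries and 9.99, 12.3 and 11.9 RPM in those of E10 AoV (log2 change 3.43 with SE 0.123 and adjusted p = 1.53e-07). Csf1r, the receptor for macrophage colony-stimulating factor, had 3.3, 2.78 and 2.85 RPM in the E9 AoV libraries and 9.52, 11.5 and 10.3 RPM in those of E10 AoV, with 16.7% of its exonic bases in another gene, and Emr1 (F4/80) had 0.114, 0.0464 and 0.0713 RPM in the E9 AoV libraries and 2.46, 2.81 and 2.72 RPM in those of E10 AoV. Emr1 was near the floor in E9 AoV and a few RPM in E10 AoV. The complement genes C1qa, C1qb and C1qc rose by 3.34, 3.41 and 3.51 on the log2 scale. Pf4, Cd68 and Lgmn did not pass. In AoD 27 of 30 rose, beside 1544 of all 17622 genes tested there. Their median in AoD was 3.04. Csf1r was 1 of 8 members whose stage change was larger there by the test of the difference, beside 6.85% of all genes in that test.

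Red cell genes varied as much within E9 AoV as between the stages. Hbb-bh1, an embryonic beta-like globin, had 3630, 794 and 2220 RPM in the E9 AoV libraries and 1260, 2380 and 2010 RPM in those of E10 AoV, and Gata1, the factor of the red lineage, had 16, 3.08 and 10.3 RPM in the E9 AoV libraries and 5.32, 9.31 and 9.15 RPM in those of E10 AoV. In E9 AoV the levels differed several-fold between replicates 1 and 2, and the E10 AoV values lay between them. Of 27 tested genes 1 rose, 3.70% beside 11.0% of all tested genes. This was Hbb-b1, an adult beta globin, from 49.8, 10.2 and 29.8 RPM to 59.7, 123 and 84.7 RPM (log2 change 1.78 with SE 0.498 and adjusted p = 0.0177). It shares 58.3% of its 50-base stretches with other globin transcripts, so its reads are in part assigned by proportion. Its call was lost without E10 AoV replicate 2 (1.52) or E10 AoV replicate 3 (1.79), which left 0 calls on the list. The call was also lost by limma with no filter on low values (adjusted p = 0.0832) or with no intensity trend (adjusted p = 0.0571).

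Bone morphogenetic proteins (BMPs) bind type I and II receptors that phosphorylate SMAD1, SMAD5 and SMAD9, and secreted antagonists such as Noggin and Chordin hold the ligands back. Among the ligands, Bmp4 had 63.6, 69 and 70.6 RPM in the E9 AoV libraries and 88.4, 87.9 and 96.6 RPM in those of E10 AoV (log2 change 0.42 with SE 0.0590 and adjusted p = 4.18e-04), higher in all E10 AoV libraries by less than 2-fold. Bmp5 had 37, 46.5 and 45 RPM in the E9 AoV libraries and 83.8, 86.6 and 97.3 RPM in those of E10 AoV (log2 change 1.06 with SE 0.0922 and adjusted p = 2.36e-05), and 46.7% of its exonic bases overlap another annotated gene. The call of Bmp5 was lost without E9 AoV replicate 1 (0.96) or E10 AoV replicate 3 (0.997). Gdf2 (BMP9), made by the liver, fell from 5.11, 6.28 and 4.68 RPM to 0.752, 1.07 and 0.978 RPM. Bmp2 and Bmp7 had log2 fold changes of -0.95 and -0.90 and did not pass the fold threshold, except Bmp2 without E10 AoV replicate 1 (-1.05). In all, 2 of 13 tested ligands rose and 3 fell (1 and 2 with a pseudocount of 1 RPM).

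Of 24 tested antagonists and modulators, 5 rose and 3 fell (2 and 1 with a pseudocount of 1 RPM). Bmper, a secreted BMP-binding endothelial regulator, had 6.86, 8.12 and 7.68 RPM in the E9 AoV libraries and 90.1, 90.5 and 93.5 RPM in those of E10 AoV (log2 change 3.58 with SE 0.0698 and adjusted p = 8.70e-09; chromosome 9, 23027520 to 23289646, plus strand, NCBIM37). Its levels in E10 AoD and E10 UGR were 42.7 ± 2.14 and 35.3 ± 4.46 RPM. Nog had 4.92, 3.92 and 4.3 RPM in the E9 AoV libraries and 10.2, 9.46 and 11.7 RPM in those of E10 AoV and rose by 1.24 on the log2 scale, and Chrdl2 rose by 1.28 (0.60 with 1 RPM added, which is no call). Chrd, Grem1 and Fst had log2 fold changes of 0.49, 0.41 and -0.56 and did not pass. Antagonists therefore did not move together.

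Targets of the pathway were also divided. Id1, an inhibitor of bHLH factors and a direct SMAD target, had 103, 59.6 and 67 RPM in the E9 AoV libraries and 191, 169 and 212 RPM in those of E10 AoV (log2 change 1.35 with SE 0.178 and adjusted p = 3.06e-04). Id3, Id2 and the inhibitory Smad6 had log2 fold changes of 0.97, 0.69 and 0.75, all below the fold threshold and with no overlap between stages, and Id3 passed it without E9 AoV replicate 1 (1.06) or E10 AoV replicate 1 (1.003). Msx1 had 54.3, 44.1 and 50.6 RPM in the E9 AoV libraries and 9.48 ± 1.06 RPM (SD, n = 3) in those of E10 AoV (log2 change -2.38 with SE 0.101 and adjusted p = 3.67e-07), and Msx2, Tbx3, Tbx20 and Hand1, which are also regulators of limb, gut wall and heart mesoderm, fell with it. Over the list, 2 of 18 tested targets rose and 5 fell. Of 19 receptors and SMADs 2 rose, Acvr1c and Smad9, and none fell, a share near the 11.0% called over all tested genes. Smad9 was not called without E9 AoV replicate 1 (0.86), which left 1 call.

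Among the related ligands, Inhbb, the beta B subunit of activin and inhibin, had 0.274, 0.162 and 0.238 RPM in the E9 AoV libraries and 10.2, 11.2 and 8.31 RPM in those of E10 AoV (log2 change 4.95 with SE 0.176 and adjusted p = 1.42e-07). It was at 0.595 ± 0.331 RPM in E10 AoD and 17.1 ± 0.643 RPM in E10 UGR. Tgfb2 had 52.8, 63.5 and 57.7 RPM in the E9 AoV libraries and 127, 128 and 125 RPM in those of E10 AoV and rose by 1.13 on the log2 scale, whereas Tgfb1 had 17.2 ± 1.91 and 20.6 ± 0.252 RPM. Of 11 tested ligands 4 rose and 2 fell (2 and 0 with a pseudocount of 1 RPM).

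Factors that support blood cells moved in both directions. Of 31 tested cytokines and growth factors, 7 rose and 6 fell (5 and 2 with a pseudocount of 1 RPM). Cxcl12, the chemokine that holds stem cells in their niche, had 233, 277 and 263 RPM in the E9 AoV libraries and 1030, 1050 and 1010 RPM in those of E10 AoV (log2 change 2.002 with SE 0.0635 and adjusted p = 8.94e-08). Its E10 AoV libraries differed from each other by far less than from E9 AoV, and E10 AoD had 1333 ± 15.3 RPM. Kitl (stem cell factor) had 104, 133 and 120 RPM in the E9 AoV libraries and 215, 222 and 227 RPM in those of E10 AoV (log2 change 0.90 with SE 0.0806 and adjusted p = 2.83e-05), below the fold threshold. Thpo (thrombopoietin), which the liver also makes, fell from 1.15, 0.94 and 0.913 RPM to 0.549, 0.469 and 0.336 RPM, a call lost without E9 AoV replicate 1 (-0.92) or E10 AoV replicate 3 (-0.85) and with 1 RPM added (-0.46). Gdnf, a neurotrophic factor of gut wall and kidney, fell by 2.76 on the log2 scale. Chemokines and their receptors rose in 9 of 16 tested cases and fell in 1, Cxcl14 (3 and 1 with a pseudocount of 1 RPM). Ccl2, Ccl3 and Ccl9 and the receptor gene Ccr1 rose by 2.67, 2.08, 2.38 and 2.75 on the log2 scale, and with 1 RPM added Ccl2 and Ccr1 were not called (0.96 and 0.91).

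A further list holds 10 secreted factors that the study had selected on these same samples, so that their direction is not independent evidence. Of these, 9 rose (5 with a pseudocount of 1 RPM), and Wnt2b had 11.4, 16 and 14.3 RPM in the E9 AoV libraries and 22.5, 27.5 and 31 RPM in those of E10 AoV (log2 change 0.95 with SE 0.143 and adjusted p = 6.59e-04), under 2-fold except without E9 AoV replicate 2 (1.06) or E10 AoV replicate 1 (1.08). Beside Bmper and Inhbb, Ibsp, a bone matrix sialoprotein, had 1.12, 1.14 and 1.19 RPM in the E9 AoV libraries and 8.04, 6.88 and 7.5 RPM in those of E10 AoV, and Nell1 had 4.33, 4.82 and 4.46 RPM in the E9 AoV libraries and 15, 16 and 15 RPM in those of E10 AoV. Their E10 AoV libraries were above all E9 AoV libraries.

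In the insulin-like growth factor axis, Igf1 had 24.7, 31 and 26.4 RPM in the E9 AoV libraries and 102, 109 and 81.9 RPM in those of E10 AoV (log2 change 1.83 with SE 0.115 and adjusted p = 3.18e-06), while Igf2, the fetal growth factor, had 4677 ± 200.3 and 4667 ± 98.7 RPM (-0.0024). Pappa, a protease that frees IGF from its binding proteins, rose from 17.5 ± 3.17 to 78.1 ± 7.20 RPM, and Igfbp1, a product of liver, fell from 2.16 ± 0.433 to 0.178 ± 0.122 RPM. Of 17 tested genes 4 rose and 3 fell. Of 23 tested imprinted genes none rose and 2, Phlda2 and Dcn, fell, 8.70% beside 11.0% of all tested genes. H19, Peg3 and Dlk1 had log2 fold changes of -0.20, 0.43 and -0.22.

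Of 32 NF-kB and JAK-STAT genes 4 rose, among them Socs3 and Tnfaip3, feedback inhibitors, by 1.30 and 1.43 on the log2 scale, and 1, Il1r1, fell, 15.6% beside 11.0% of all tested genes (2 and 1 with a pseudocount of 1 RPM). Of 25 interferon response genes 8 rose (32.0%), and 3 did with a pseudocount of 1 RPM. Iigp1, an interferon-inducible GTPase, had 1.34, 1.27 and 1.35 RPM in the E9 AoV libraries and 28.9, 35 and 32.7 RPM in those of E10 AoV (log2 change 4.50 with SE 0.0938 and adjusted p = 1.36e-08), while Isg15 and Irf7, core response genes, had 0.332 ± 0.0475 and 0.450 ± 0.0998 RPM and 0.475 ± 0.114 and 0.459 ± 0.124 RPM with overlapping ranges.

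Immediate early genes, whose transcripts appear within minutes of a stimulus without new protein synthesis, rose in 25 of 33 tested cases and fell in none, with a median log2 fold change of 1.82. Fos had 375, 123 and 215 RPM in the E9 AoV libraries and 1030, 830 and 1060 RPM in those of E10 AoV (log2 change 2.17 with SE 0.324 and adjusted p = 6.49e-04). Jun had 564, 252 and 245 RPM in the E9 AoV libraries and 1330, 1020 and 1330 RPM in those of E10 AoV (log2 change 1.90 with SE 0.282 and adjusted p = 6.34e-04), and Egr1, a zinc finger factor, had 300, 133 and 231 RPM in the E9 AoV libraries and 967, 729 and 915 RPM in those of E10 AoV (log2 change 2.04 with SE 0.251 and adjusted p = 1.98e-04). E9 AoV replicate 1 held the highest Fos and Jun of its group, and all E10 AoV libraries were above it. Nr4a1, an orphan nuclear receptor, Atf3, a stress-responsive factor, and Klf4 rose by 2.07, 2.20 and 2.29 on the log2 scale. Fosb, Jund, Klf6 and Cyr61, which with Fos, Jun and Egr1 were among the 10 genes that gained most in RPM, rose from 169 ± 87.1, 257 ± 85.5, 171 ± 37.2 and 150 ± 33.8 to 605 ± 113, 657 ± 73.5, 470 ± 87.6 and 395 ± 32.3 RPM. Myc, which growth signals also induce, had 54.7 ± 9.42 and 39.1 ± 5.05 RPM with overlapping ranges.

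In AoD 24 of these genes rose between the stages, with a median of 1.77, beside 1544 of all 17622 genes tested there. The AoV and AoD changes differed by the test for 1 member in the positive and 2 members in the negative direction. Over all 18402 genes in that test the shares were 3.96% and 6.85%. Of 14 heat shock genes 2 rose and 1 fell (Cryab). The inducible Hspa1a and Hspa1b, near-identical copies whose separate values are uncertain, rose by 1.93 and 1.68, and Dnajb1 and Hsp90aa1 had log2 fold changes of 0.19 and -0.29. The time between dissection and lysis is not given in the sources used here, and its part in the rise of the immediate early genes was not tested.

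The promoters of 3 immediate early genes are shown because they hold TGACG (reverse complement CGTCA), the core site of the cAMP response element through which CREB acts on such genes. They are again the 250 bases before the RefSeq start on GRCm38.p6, 5′ to 3′ on the gene's strand, with the core sites in capitals. Fos is on the plus strand at chr12:85473640-85473889, Nr4a1 on the plus strand at chr15:101266596-101266845 and Atf3 on the minus strand at chr1:191183334-191183583.
Fos: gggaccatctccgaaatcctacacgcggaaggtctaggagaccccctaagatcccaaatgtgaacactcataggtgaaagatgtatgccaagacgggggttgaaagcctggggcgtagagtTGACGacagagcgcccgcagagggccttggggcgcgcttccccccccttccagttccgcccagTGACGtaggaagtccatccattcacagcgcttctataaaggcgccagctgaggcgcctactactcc
Nr4a1: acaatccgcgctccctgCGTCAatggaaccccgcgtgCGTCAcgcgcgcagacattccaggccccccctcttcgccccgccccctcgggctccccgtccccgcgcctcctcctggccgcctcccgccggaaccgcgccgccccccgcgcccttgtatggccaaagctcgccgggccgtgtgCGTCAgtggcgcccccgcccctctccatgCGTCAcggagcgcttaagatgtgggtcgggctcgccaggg
Atf3: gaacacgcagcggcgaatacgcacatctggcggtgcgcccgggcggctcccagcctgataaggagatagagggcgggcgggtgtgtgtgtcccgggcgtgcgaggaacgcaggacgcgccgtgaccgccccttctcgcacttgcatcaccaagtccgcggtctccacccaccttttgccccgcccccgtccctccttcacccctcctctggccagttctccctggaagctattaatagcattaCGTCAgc
The letters occur 2 times in the Fos window, the nearest 66 bases before the start, 4 times in that of Nr4a1 and once in that of Atf3. Of the 25 genes of the list that rose, 20 had a promoter entry and 13 of these (65.0%) held TGACG on either strand, beside 19.8% of all genes with an entry. The motif holds a CG pair, and the median GC content was 64.6% over the promoter windows of these genes and 52.4% over all promoters.

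Genes of developmental timing and glucose use fell or stayed under 2-fold. Lin28 (LIN28A), the RNA-binding protein that blocks let-7 maturation, had 289, 314 and 324 RPM in the E9 AoV libraries and 110, 103 and 140 RPM in those of E10 AoV (log2 change -1.40 with SE 0.104 and adjusted p = 8.71e-06), and its paralog Lin28b had 118 ± 4.93 and 76.2 ± 3.10 RPM (-0.63). Nr6a1 and Sall4, which fall as embryonic tissues mature, fell by 1.75 and 2.23 on the log2 scale. With Lin28 these were the only 3 of 20 tested members that passed, 15.0% beside 11.0% of all tested genes. Hmga2, a let-7 target, had a log2 fold change of 0.58. Glycolysis and hypoxia genes fell in 6 of 31 tested cases and rose in none. Slc2a3, the neuronal and embryonic glucose transporter GLUT3, had 268, 308 and 305 RPM in the E9 AoV libraries and 26.6, 26.2 and 25.8 RPM in those of E10 AoV (log2 change -3.48 with SE 0.0599 and adjusted p = 6.83e-09). Slc2a1 (GLUT1) had 252, 262 and 280 RPM in the E9 AoV libraries and 90.7, 89.5 and 92.3 RPM in those of E10 AoV, and Ldha, which turns pyruvate into lactate, had 1060, 1010 and 1070 RPM in the E9 AoV libraries and 503, 467 and 519 RPM in those of E10 AoV. All 3 fell without overlap, and AoD had -3.23, -2.10 and -1.38 for the same genes. The glycolytic enzymes Pgk1, Eno1 and Aldoa had log2 fold changes of -0.67, -0.74 and -0.45, below the fold threshold. Hif1a had overlapping ranges.

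Proliferation genes did not change by 2-fold in any of 34 tested cases. Mki67, Top2a and Pcna, present in cycling cells, had log2 fold changes of -0.08, -0.12 and -0.13 with overlapping ranges. By the adjusted p alone, 16 of them were lower and none higher in E10 AoV, beside 21.8% of all genes lower and 23.2% higher. Cdkn1a (p21), a brake on the cycle, fell from 13.8, 15 and 14.1 RPM to 6.33, 5.19 and 5.17 RPM. It was the only 1 of 10 CDK inhibitor genes to pass, a share near the 11.0% called over all tested genes. Cdkn1c (p57) had 354, 362 and 321 RPM in the E9 AoV libraries and 651, 684 and 603 RPM in those of E10 AoV (0.90). A second CDK inhibitor gene passed without E9 AoV replicate 1, E10 AoV replicate 1 or E10 AoV replicate 3, which made 2 calls.

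Matrix genes moved in both directions. Of 43 tested collagen and matrix genes 8 rose and 5 fell. Tnc, tenascin C, had 104, 148 and 117 RPM in the E9 AoV libraries and 425, 476 and 414 RPM in those of E10 AoV (log2 change 1.85 with SE 0.115 and adjusted p = 3.09e-06), and in AoD it was at 17.8 ± 6.76 and 17.3 ± 2.37 RPM. Col12a1, a collagen of tension-bearing tissue, had 11.9, 15.8 and 14 RPM in the E9 AoV libraries and 87.8, 115 and 69.4 RPM in those of E10 AoV. Both were higher in every E10 AoV library, and Eln, the elastin of the arterial wall, rose by 1.59 on the log2 scale. Lum, lumican, had 163, 174 and 190 RPM in the E9 AoV libraries and 12.7, 16.2 and 15.1 RPM in those of E10 AoV (log2 change -3.58 with SE 0.0929 and adjusted p = 4.78e-08), while E9 AoD and E10 AoD had 19.5 ± 4.55 and 111 ± 2.65 RPM, so that the stage change differed in sign between the domains (AoV minus AoD -6.11 with SE 0.203 and adjusted p = 3.93e-09). Postn, periostin, fell from 612 ± 30.2 to 252 ± 17.7 RPM. Fn1, Col1a1 and Col3a1 had log2 fold changes of -0.00025, -0.95 and -0.40, and none of 17 integrin genes passed (limma). By the adjusted p alone 7 of them were higher and 3 lower, beside 23.2% higher and 21.8% lower of all tested genes. Up to 2 integrin genes passed when a library was left out, without E9 AoV replicate 2.

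All 18 tested protocadherin beta genes, a cluster of neighboring genes for cell adhesion proteins of neurons, rose. Each was below 5 RPM in every group, and the number that rose was 8 with a pseudocount of 0.5 RPM, 2 with 1 RPM and 10 where 3 libraries had to reach 1 RPM. Pcdhb17 had 1.09, 1.65 and 1.45 RPM in the E9 AoV libraries and 3.9, 4.75 and 4.35 RPM in those of E10 AoV. Pcdhb22 had 1.35, 1.58 and 1.3 RPM in the E9 AoV libraries and 3.76, 3.37 and 4 RPM in those of E10 AoV (log2 change 0.97 with 1 RPM added, which is no call). Their median log2 fold change was 1.49 in AoV and 1.60 in AoD, and none passed the test of the difference between the domains, beside 10.8% of all genes in that test. Related members share sequence, which for Pcdhb7 (log2 change 0.93 with 1 RPM added, which is no call) came to 8.56% of 50-base stretches.

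Of the remaining groups, 11 of 36 tested nuclear receptors rose and 6 fell. Beside Nr5a1, Esr2 (estrogen receptor beta) had 0.182, 0.371 and 0.0951 RPM in the E9 AoV libraries and 2.91, 2.79 and 2.75 RPM in those of E10 AoV (log2 change 3.30 with SE 0.288 and adjusted p = 2.41e-05), and Nr3c1, the glucocorticoid receptor, rose from 10.49 ± 1.16 to 25.3 ± 2.65 RPM. Nr5a2 (LRH-1), the relative of Nr5a1 in liver and gut, fell from 8.66, 11.5 and 9.25 RPM to 1.69, 1.87 and 1.63 RPM, opposite to Nr5a1. Among 27 FGF pathway genes 6 rose and 4 fell (2 and 2 with a pseudocount of 1 RPM), with Fgf10, a mesenchymal ligand, at 24.3 ± 1.59 and 58 ± 3.19 RPM and Klb, the coreceptor of hepatic FGF signals, falling by 4.51 on the log2 scale. Of 20 retinoic acid genes 2 rose (Aldh1a1 and Aldh1a2) and 5 fell, with Cyp26a1, which degrades retinoic acid, falling from 5.34 ± 0.476 to 1.48 ± 0.426 RPM. Of 39 axon guidance genes 7 rose and 2 fell (3 and 2 with a pseudocount of 1 RPM), and Slit2 and Epha7 rose by 1.19 and 1.67.

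Some of the genes with the largest rise belong to no list. Clca1, a gene of the calcium-activated chloride channel regulators that shares 24.0% of its 50-base stretches with other genes, had 0.114, 0.254 and 0.0618 RPM in the E9 AoV libraries and 10.3 ± 2.24 RPM (SD, n = 3) in those of E10 AoV (log2 change 5.47 with SE 0.283 and adjusted p = 1.06e-06). Cdh10, a cadherin, and Dpp10, a membrane protein that tunes potassium channels, had 1, 1.48 and 1.26 RPM in the E9 AoV libraries and 27, 30.5 and 27.4 RPM in those of E10 AoV and 0.0912, 0.301 and 0.214 RPM in the E9 AoV libraries and 6.17, 5.42 and 6.47 RPM in those of E10 AoV. Each of these genes was higher in every E10 AoV library than in any E9 AoV library. E330013P04Rik, a transcript named by a clone only, rose by 4.21 on the log2 scale, and Ntrk3, the receptor of neurotrophin 3, by 3.57. Shisa3, which encodes an antagonist of Wnt and FGF receptors, was among the 10 genes that gained most in RPM and rose from 100.1 ± 8.53 to 433 ± 13.0 RPM. Among those that lost most were Dsp (desmoplakin of epithelial junctions), from 375 ± 85.1 to 122 ± 0 RPM, and Cldn6, a claudin of early epithelia, fell by 3.62 on the log2 scale.

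The difference between the stage changes of AoV and AoD was tested directly over 18402 genes and 12 libraries, and 1989 genes (10.8%) passed, 729 (3.96%) more positive and 1260 (6.85%) more negative in AoV. Of the 1082 genes that rose in AoV, 380 rose more than in AoD by this test and 87 less. Of the 894 that fell, 507 fell more than in AoD and 32 less. The AoV change that selected these genes is also part of the test, so both splits are in part set by that selection. The same direction was called in both domains for 555 genes that rose and 288 that fell, and opposite directions for 26 that rose and 68 that fell in AoV. In this test Nr5a1 had an AoV minus AoD difference of 4.83 with SE 0.435 and adjusted p = 7.11e-06, and Lhx9 one of 4.59 with SE 0.279 and adjusted p = 3.92e-07. Foxa1 stood at the other end with -7.40 with SE 0.255 and adjusted p = 3.93e-09. AC098733.1, named in the deposited table by a clone only, had 1.23, 0.441 and 1.05 RPM in the E9 AoV libraries and 16.6, 16.8 and 15.3 RPM in those of E10 AoV and a difference of 4.55 with SE 0.496 and adjusted p = 3.06e-05.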

How the data were processed

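RNA was sequenced from pooled dissected tissue as unstranded single-end libraries. Per the study's methods, the authors aligned reads with TopHat and Bowtie 0.12.3 to NCBI37/mm9 and counted them over Ensembl genes in GeneProf, dividing multimapping reads in proportion. The authors deposited RPM (reads per megaread assigned to genes, rounded, not adjusted for length), so levels are not compared between genes. The deposited table's 12 columns of the authors' DESeq comparisons were not used. Whole reads could not be recovered, so no count test was run. Log2(RPM + 0.1) was fitted with limma 3.58.1 (intensity trend, Benjamini-Hochberg adjustment) in R 4.3.3, on the 6 AoV libraries for the stages and on 12 for the difference between domains. In data simulated for this comparison, all 100 genes changed by 1.5 and all 100 changed by 2 on the log2 scale were recovered, of 17535. The changed genes had a mean of at least 1 RPM, and every gene was given the same spread, that of the median gene. The simulation therefore does not show recovery for lower or more variable genes. Coordinates of genes are of NCBIM37 (GENCODE), and promoters are RefSeq's on GRCm38.p6.

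The text names the 12 largest rises and falls with at least 5 RPM, list anchors, up to 4 changed members of a list each way, the 10 largest gains and losses in RPM and the 5 largest differences between domains each way. Members and lists were chosen with earlier results of these data known. Outside this rule, Alb, Alpl, Alx4, Barx1, Bcl11a, C1qb, Cd68, Chgb, Cubn, Ddx4, Eno1, F10, F5, Foxd3, Gata6, Hhex, Hif1a, Hoxd11, Hsp90aa1, Lef1, Lgmn, Mas1, Myc, Osr1, Pcdhb17, Pcdhb22, Pf4, Prox1, Sox17, Sox2, Tal1, Tbx20, Tcf21, Utf1 and Zfpm2 were chosen after their values were seen. A few genes that the rule names are not reported here.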

Additional observations from a re-analysis of the deposited data

Results flagged for a closer look

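The stage change differed between AoV and AoD for 147 of the 283 genes named above, by limma's test of the difference over 12 libraries at the thresholds of the report, with adjusted p of at most 0.0378. It was more positive in AoV for 63 and more negative for 84. Values are AoV minus AoD differences of the log2 changes. Of these, 17 stayed under 0.5 RPM in every AoD library and entered the test through AoV alone, so their difference is in part set by that filter. Over all 18402 genes of this test, 1989 (10.8%) passed. The named genes were chosen in part for large AoV changes or large differences between domains, so their count is in part set by that choice. With 3 libraries per group, no group was tested for a library far from the others.

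Among genes of liver, yolk sac and gut endoderm the difference was -7.40 for Foxa1, -6.15 for Shh, -6.08 for Apoa1, -5.88 for Itih2, -5.48 for Vtn, -5.29 for Fga, -5.18 for Ttr, -5.09 for Ambp, -5.005 for Fgb, -5.001 for Serpina1a, -4.94 for Afp, -4.76 for Serpina1b, -4.73 for Alb, -4.38 for Serpinf2, -3.80 for Foxa2, -3.79 for Cubn, -3.76 for Hnf4a, -3.70 for Ihh, -3.59 for Trf, -3.14 for Apob, -2.61 for Krt8, -1.80 for F10 and -1.60 for Hhex. In the positive direction it was 1.78 for Sox2.

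Among adrenogonadal, steroid, renin-angiotensin and nephric genes the difference was -2.29 for Agtr2, -1.49 for Agtr1a and -1.37 for Ace. The genes with a more positive change in AoV gave 4.83 for Nr5a1, 4.59 for Lhx9, 4.52 for Emx2, 3.55 for Aldh1a1, 3.43 for Amhr2, 3.08 for Aldh1a2, 2.78 for Nr0b1, 2.63 for Pax2, 2.30 for Calb1, 2.23 for Wt1, 2.16 for Mc2r, 2.16 for Cyp11a1, 2.06 for Lhx1, 2.02 for Tcf21, 1.95 for Gata4, 1.79 for Wnt4 and 1.65 for Hsd3b1.

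For germ cell genes it was 3.75 for Utf1, 3.73 for Pou5f1, 3.39 for Rhox9, 3.17 for Dppa4, 3.10 for Esrrb, 3.04 for Dppa5a, 2.99 for Nanog, 2.72 for Dppa3 and 1.88 for Alpl.

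For sympathoadrenal, neural and axon guidance genes the difference was -2.58 for Chgb, -1.98 for Dbh and -1.02 for Phox2a. In the positive direction it was 1.79 for Ntrk3 and 1.71 for Epha7.

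For blood, macrophage and endothelial genes the difference was -2.58 for Lyve1, -2.21 for Stab2, -2.16 for Csf1r, -2.05 for Bcl11a, -1.98 for Nrp2, -1.76 for Sfpi1, -1.54 for Gfi1, -1.26 for Hlf, -1.10 for C1qb, -1.09 for Gata2, -1.08 for Bmx and -1.05 for Gja5. The genes with a more positive change in AoV gave 1.40 for Nr2f2.

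For smooth muscle and matrix genes the difference was -6.11 for Lum, -2.77 for Acta2, -2.48 for Col1a1, -2.29 for Postn, -1.85 for Col3a1, -1.46 for Myh11, -1.45 for Cnn1, -1.2 for Tagln, -1.13 for Cspg4 and -1.05 for Eln. On the other side it was 1.82 for Tnc and 1.30 for Heyl.

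For the BMP, TGF-beta, IGF and cytokine genes the difference was -4.60 for Tbx20, -3.10 for Bmp2, -3.03 for Igfbp1, -2.07 for Tbx3, -1.93 for Wnt5a, -1.80 for Hand1, -1.71 for Gdf2, -1.39 for Hand2, -1.31 for Igf2, -1.29 for H19, -1.16 for Cxcl14 and -1.08 for Tgfb1. In the positive direction it was 3.79 for Ibsp, 3.60 for Inhbb, 2.65 for Fgf10, 2.50 for Grem1, 2.40 for Pappa, 2.05 for Nell1, 1.81 for Fst, 1.77 for Acvr1c, 1.60 for Bmper, 1.48 for Kitl, 1.23 for Nog and 1.05 for Chrdl2.

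For Hox, caudal and mesoderm genes the difference was -2.36 for Hoxa13, -2.02 for Pax1, -2.01 for Alx4, -1.33 for Cyp26a1 and -1.13 for Pitx1. The genes with a more positive change in AoV gave 3.07 for Hoxd11, 2.65 for Hoxb1, 2.38 for Hoxd10, 2.35 for Hoxd9, 1.76 for Nr2f1 and 1.64 for Fgf8.

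For Hedgehog, Wnt, FGF, Notch and retinoic acid genes the difference was -7.14 for Foxf2, -4.83 for Foxf1a, -4.48 for Sfrp5, -4.26 for Rspo2, -4.09 for Hhip, -3.18 for Klb, -2.38 for Ptch1 and -1.52 for Gli1. On the other side it was 1.97 for Wnt2b, 1.93 for Gas1 and 1.55 for Ror1.

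For the remaining genes the difference was -3.86 for Nepn, -3.24 for Il1r1, -3.23 for Dcn, -3.21 for Cryab, -2.30 for Nr5a2, -1.68 for Phlda2, -1.59 for Cdkn1a and -1.14 for Klf6. In the positive direction it was 4.55 for AC098733.1, 4.52 for E330013P04Rik, 4.26 for Dpp10, 2.67 for Clca1, 2.30 for Esr2, 1.92 for Cdh10, 1.85 for Iigp1, 1.82 for Nefm, 1.31 for Lin28 and 1.17 for Shisa3.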

How the results depend on the processing

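The number of genes changed between E9 AoV and E10 AoV was 1976, and 1989 genes had a stage change that differed between the domains. With a pseudocount of 1 RPM these were 1104 and 1173, without the fold threshold 8061 and 4753, and under limma's test against a log2 change of 1 (treat) 998 and 590, where by construction fewer or more genes can pass. With a pseudocount of 0.5 RPM they were 1434 and 1464, and with the other settings (no or a stricter filter on low values, quantile or median-ratio scaling, no intensity trend, precision weights, all 15 libraries) they stayed within 1.5 times. Leaving out 1 library gave between 1926 and 2001 and between 1860 and 2030 genes.

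The 283 named genes had 4517 values under these settings, treat and the setting without the fold threshold left out. Of these values, 4465 stayed on the same side of the thresholds, 36 lost a call and 16 gained one. Direction was compared only where a gene was called in the main fit or the alternative, and 0 such values changed direction. A pseudocount cost 14 of these genes their call and leaving out 1 library cost 8 genes their call. Other settings cost 1 gene, Hbb-b1, its call. The count of called members moved by over 1.5 times in 16 of 48 lists under a pseudocount and in 6 when a library was left out.

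Deviations from the group means in equally numbered E9 AoV and E10 AoV libraries had correlations of -0.0813, 0.0402 and 0.0421. These values cannot show whether such libraries share an experiment. Whether AoV and AoD libraries of one number share embryos is not given in the sources used here. Between them the correlations were 0.461, 0.356 and 0.196 at E9.5 and 0.0459, 0.207 and 0.175 at E10.5, so 5 of 6 but not all exceeded 0.1. With a replicate block the counts were 1977 and 2018, of which 1975 and 1978 were called without it. A block within each stage, chosen after seeing the data, gave 2049 differences between the domains, 1976 of them called without it. Among named genes, no stage change gained or lost a call under the replicate block, while the difference between domains was gained by Wnt3a and Cdh16 under both blocks and by Hoxd13 under the block within each stage, where that of Chrdl2 was lost. Depth limits genes below 0.0778 RPM, the level of 3 reads in the shallowest library.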
